A study of Homo sapiens with 5 samples.

Results

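Mediator and RNA polymerase II (Pol II) are the complexes that transcribe protein-coding genes and relay signals from transcription factors to the polymerase. Their genes were taken from the annotation by symbol: MED followed by a number and an optional L, the kinase module genes CDK8, CDK19 and CCNC, and POLR2 followed by a letter. This rule found 46 genes among 20162 protein-coding genes, of which 33 belong to Mediator and 13 to Pol II. It uses no measured value, and it includes POLR2M, a Pol II-associated protein that is not a core subunit. PHF8 is a histone demethylase whose substrates are methyl marks of repressed chromatin, and the experiment maps the promoters it occupies in melanoma cells. Crosslinked chromatin of the established human melanoma line SKMEL-147, for which the labels name neither treatment nor genotype, was precipitated with an antibody to PHF8 and sequenced (ChIP-seq). The 3 ChIP replicates (A, B1 and B2) gave a peak list each, and 2 input libraries (A and B) enter only through the enrichment values. Values given as a series of 3 are in the order A, B1, B2. Nothing in the labels says that the replicates came from separate cultures, so the spread between them may be technical.

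Mediator is built of a head, a middle and a tail held together by a scaffold subunit, MED14, and it binds a separable kinase module in which CDK8 or CDK19 pairs with cyclin C. The kinase module, with MED12 and MED13 or their paralogues MED12L and MED13L, is known to control the contact between Mediator and the polymerase. Pol II has a pair of large catalytic subunits, POLR2A and POLR2B, a set of small subunits of its own, and small subunits that it shares with RNA polymerases I and III. These genes are used by nearly all cell types, and PHF8 is known for binding near the transcription start sites (TSSs) of active genes.

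PHF8 occupied the promoters of 45 of the 46 genes (97.8%), that is, in each of the 3 replicates a peak overlapped the 1 kb on either side of at least 1 of the gene's TSSs. The share was 60.2% over all protein-coding genes, with 12139 such targets. All 33 Mediator genes were targets, in every module. Of the 13 Pol II genes 12 were targets, and the exception was POLR2J, which had no promoter peak in any replicate. All 45 were also occupied at the TSS of their canonical transcript, against 58.1% of protein-coding genes with a canonical transcript. The 45 targets differed widely in how much PHF8 they carried. Fold enrichment over input at the strongest promoter peak averaged from 10.8 ± 5.17 at MED12 to 43.0 ± 12.4 at POLR2D (SD, n = 3).

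The lists held 21506, 20882 and 20120 peaks in A, B1 and B2. Median fold enrichment of protein-coding targets was 33.4 in A against 19.4 in B1 and 18.4 in B2, so levels were compared within a replicate, as a percentile among the 12139 targets. Median ChIP fragments at the summits of those targets, recovered from the deposited enrichment and p-value, were 97, 64 and 63, and the weakest listed summits of any kind carried 8, 8 and 10. Of 7 melanocyte lineage genes MITF, SOX10 and PMEL were targets and DCT, MLANA, TYR and TYRP1 were not, and none of the 4 annotated markers of other cell types (COL1A1, KRT5, KRT14 and PTPRC) was a target.

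**Figure D1:**
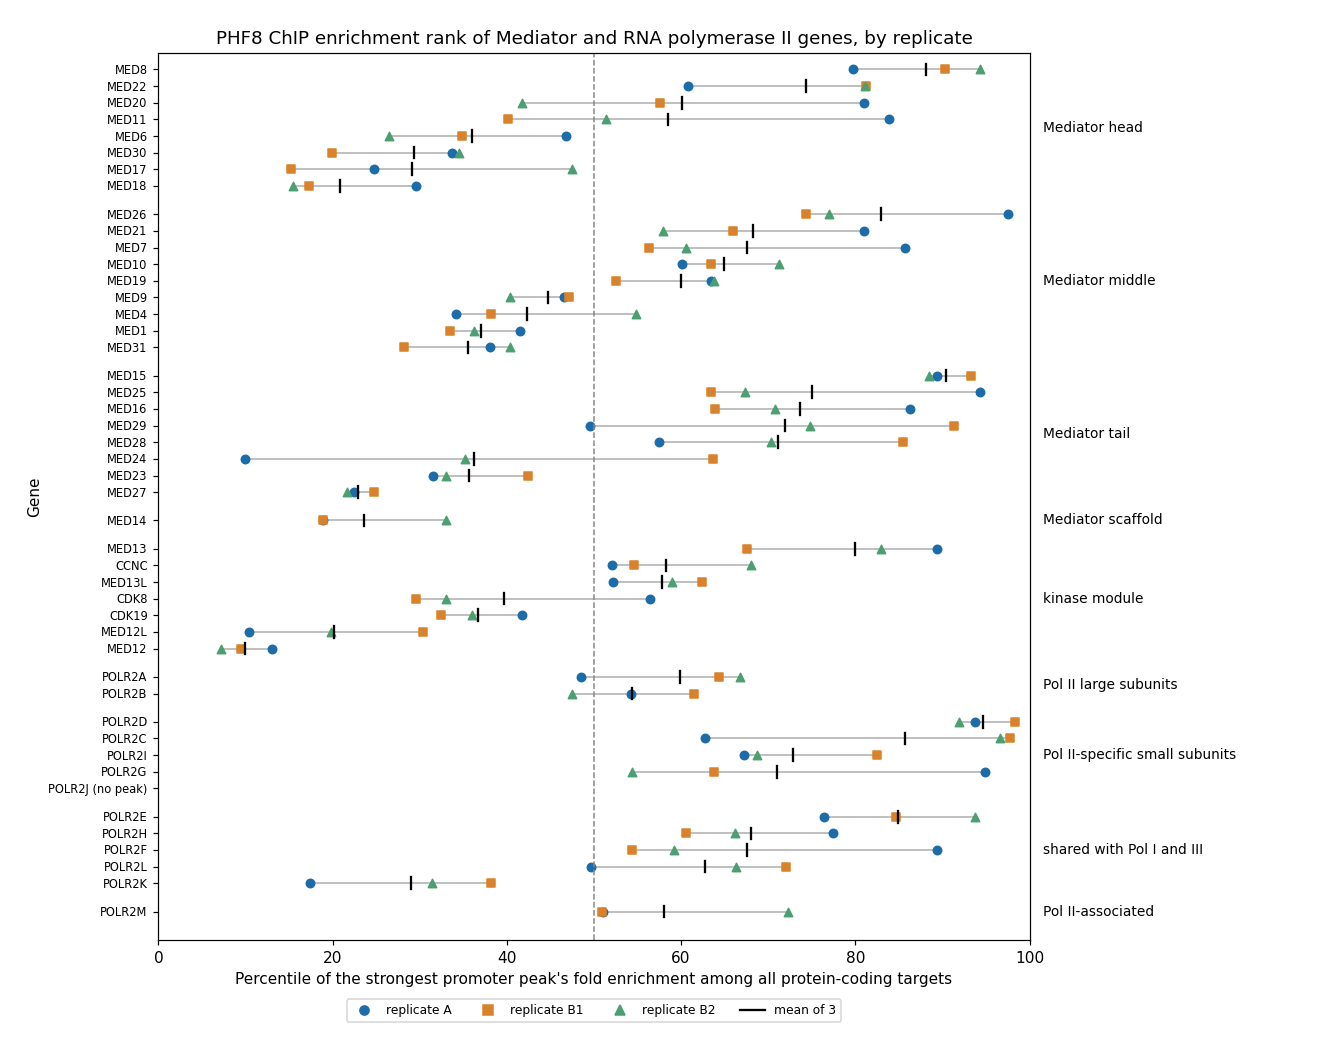
Percentile of each gene's strongest promoter peak among all protein-coding targets (horizontal axis, 0 to 100) for replicates A, B1 and B2, grouped by module, with the mean of 3 as a black bar and the median of all targets as a dashed line. POLR2D has the highest mean (94.6) and MED12 the lowest (9.90), and POLR2J has no peak.

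Mediator genes sat at the middle of the distribution of PHF8 targets and Pol II genes above it. The median percentile of the 33 Mediator genes was 52.1, 52.6 and 51.3, a mean of 52.0 ± 0.624 (SD, n = 3). The median of the 12 bound Pol II genes was 65.0, 64.0 and 66.6, a mean of 65.2 ± 1.27. The Pol II median was thus the higher in each replicate, and no test across genes was made. By recovered fragments in place of fold enrichment the medians were 47.6 and 72.6.

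The share of the genes at either end of the ranking by fold enrichment was below that of all targets. At or above percentile 75 of fold enrichment in all 3 replicates were 4 of the 45 (8.89%), against 15.4% of all protein-coding targets, namely POLR2D, MED15, MED8 and POLR2E. By recovered fragments the count was 9 of 45 (20%), against 18.3%, so the comparison of the upper end with all targets depends on the measure. Below percentile 25 in all 3 were 2 (4.44%), MED12 and MED27, against 17.6%. Above the median in all 3 were 22 (48.9%), against 38.6%. The mean percentile lay between 20 and 80 for 38 of the 45 (84.4%), against 64.1% of all targets. This count also depends on the measure. By recovered fragments the means of MED25 (95.4), MED29 (90.4), MED10 (80.6) and MED22 (80.4) passed 80. Those of MED12L (18.8) and MED14 (18.4) fell below 20, and no gene moved the other way. The share of all targets between these limits was not taken by fragments. The rank of a single gene varied between replicates. The percentile moved by a median of 19.95 points, against 12.9 over all targets, and by over 30 points for 9 genes (20%, against 11.9% of all targets), so genes next to each other in the order cannot be separated.

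The Pol II gene with the most PHF8 was POLR2D, which encodes a subunit of the polymerase stalk (chr2:128601127-128615729, minus strand, hg19). Fold enrichment was 56.2, 41.2 and 31.6, at percentiles 93.7, 98.3 and 91.9. None of the other 44 genes was above percentile 90 in all 3 replicates. POLR2C, a subunit of the core around which the enzyme assembles (chr16:57496572-57505921, plus strand), had 38.3, 39.8 and 35.8, at percentiles 62.7, 97.8 and 96.6. Replicate A was its low value by rank. There the local background in the peak caller's model was 2.56 times the genome-wide one, against 1.54 in B1 and 1.74 in B2. Whether background bears on the rank was not tested. By fragments POLR2C ranked first of all 45 genes, with 191, 157 and 162 at its summit and a mean percentile of 99.4. POLR2E, a subunit shared by the 3 nuclear polymerases (chr19:1086573-1095379, minus strand), had a fold enrichment of 44.3, 29.3 and 33.0, at percentiles 76.3, 84.6 and 93.7.

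The large catalytic subunits were not among the most enriched. POLR2A, which carries the C-terminal repeat domain that is phosphorylated during transcription (chr17:7387685-7417933, plus strand), had a fold enrichment of 32.7, 22.8 and 22.3, and POLR2B, its partner in the active site (chr4:57843888-57897324, plus strand), had 35.1, 22.2 and 17.7. Their mean percentiles were 59.9 ± 9.94 and 54.4 ± 7.01, and their ranges overlapped. The other stalk gene, POLR2G, stood at percentile 94.9 in A but 63.8 in B1 and 54.3 in B2, so its rank depends on the replicate. POLR2I, a small subunit of Pol II alone, had a mean percentile of 72.8 ± 8.41. The median of the 4 bound small subunits that are particular to Pol II was 83.6 ± 5.62. The median of the 5 shared subunits was 67.7 ± 8.01, from POLR2E down to POLR2K at 29.0 ± 10.6, with POLR2H at 68.1, POLR2F at 67.6 and POLR2L at 62.7. POLR2M was at 58.1 ± 12.3.

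Among Mediator genes the highest ranks were in the tail and the head. MED15, a tail subunit that binds activators (chr22:20850200-20941919, plus strand), had a fold enrichment of 52.2, 34.1 and 29.6, at percentiles 89.3, 93.3 and 88.5. Its strongest summit was not at the canonical TSS but far upstream, at −11533, −11521 and −11517 bp from it, next to an alternative TSS, in a peak that also meets the promoter of KLHL22 on the other strand. At the canonical TSS of MED15 fold enrichment was 25.8, 23.4 and 21.0. MED8, a head subunit (chr1:43849588-43855479, minus strand), had 46.1, 32.1 and 33.5, at percentiles 79.8, 90.3 and 94.3. Its summit lay at −268, −253 and −250 bp from the canonical TSS.

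The low end was held by 5 Mediator genes. MED12 of the kinase module (chrX:70338393-70363953, plus strand) had a fold enrichment of 16.8, 8.53 and 7.23, at percentiles 12.9994, 9.53 and 7.16, on 42, 24 and 21 fragments. Its paralogue MED12L (chr3:150803073-151154860, plus strand) had 15.0, 14.5 and 11.3. The head subunit MED18 (chr1:28655513-28662476, plus strand) had 25.3, 10.98 and 10.1, and the tail subunit MED27 (chr9:134728315-134955254, minus strand) had 22.1, 13.2 and 11.8. The scaffold gene MED14 (chrX:40507557-40595110, minus strand) had 20.3, 11.6 and 14.5. All 5 have a peak in every replicate, as the definition of a target requires of each ranked gene. MED12 and MED14 are on chromosome X, where the median percentile of the 409 protein-coding targets was 20.6 ± 1.81 (SD, n = 3), against 51.4 on the autosomes. The part of the chromosome in these low values was not tested.

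By module, the median percentile was 45.3 ± 8.18 for the 8 head genes, 56.9 ± 3.90 for the 9 middle genes, 62.0 ± 7.77 for the 8 tail genes and 40.2 ± 10.4 for the 7 kinase module genes (SD over 3 replicates). The SDs are of the size of the differences between neighbouring modules. In the head, MED22 was at a mean percentile of 74.4, MED20 at 60.1, MED11 at 58.4, MED6 at 36.0, MED30 at 29.4 and MED17 at 29.1. In the middle, MED26, which contacts elongation factors, was at 82.9, MED21 at 68.3, MED7 at 67.6, MED10 at 64.9 and MED19 at 59.9. MED9 followed at 44.7, MED4 at 42.3, MED1, the subunit that binds nuclear receptors, at 37.1, and MED31 at 35.5. In the tail, MED25 was at 75.02, MED16 at 73.6, MED29 at 71.9, MED28 at 71.1, MED24 at 36.2 and MED23 at 35.6. MED24 had the least stable rank, with percentiles of 9.89, 63.7 and 35.1. Its background in A was 2.56 times the genome-wide one against 1.21 in B1 and B2, and a link to the rank was not tested. In the kinase module, MED13 was at 79.9, CCNC at 58.2, MED13L at 57.8, CDK8 at 39.7 and CDK19 at 36.7.

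The kinase module allowed 3 comparisons of paralogues, which take each other's place in the complex. CDK8, the cyclin-dependent kinase that names the module, had a fold enrichment of 35.8, 14.3 and 14.5. CDK19 had 30.0, 15.0 and 15.1, so CDK8 was the higher in A alone. The mean log2 ratio of CDK8 to CDK19 was 0.04 ± 0.19 (SD, n = 3; exact two-sided sign-flip permutation test, p = 1.0). The mean log2 ratio of MED12 to MED12L was −0.42 ± 0.50 (n = 3; exact permutation p = 0.5), with MED12 the lower in B1 and B2 only. By recovered fragments MED12 was the lower in 3 of 3 replicates, with 42, 26 and 21 fragments against 44, 45 and 36, and the mean log2 ratio was −0.55 (exact permutation p = 0.25). Here the peak with the most fragments was taken, so MED12 has 26 in B1 and not the 24 of its strongest peak by fold enrichment. MED13 had 52.2, 23.7 and 27.1 and MED13L had 34.3, 22.4 and 20.4, so MED13 was the higher in 3 of 3 replicates by fold enrichment. The mean log2 ratio was 0.37 ± 0.27 (n = 3; exact permutation p = 0.25). By recovered fragments MED13 was the lower in B1, with 133, 69 and 82 fragments against 96, 76 and 70, and the mean log2 ratio was 0.19 (exact permutation p = 0.5). With 3 replicates such a test cannot go below 0.25, and it takes B1 and B2 as separate although their labels share the letter of input B. The p-values adjusted by Benjamini-Hochberg over the 3 pairs were 1.0, 0.75 and 0.75 for fold enrichment.

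**Figure D2:**
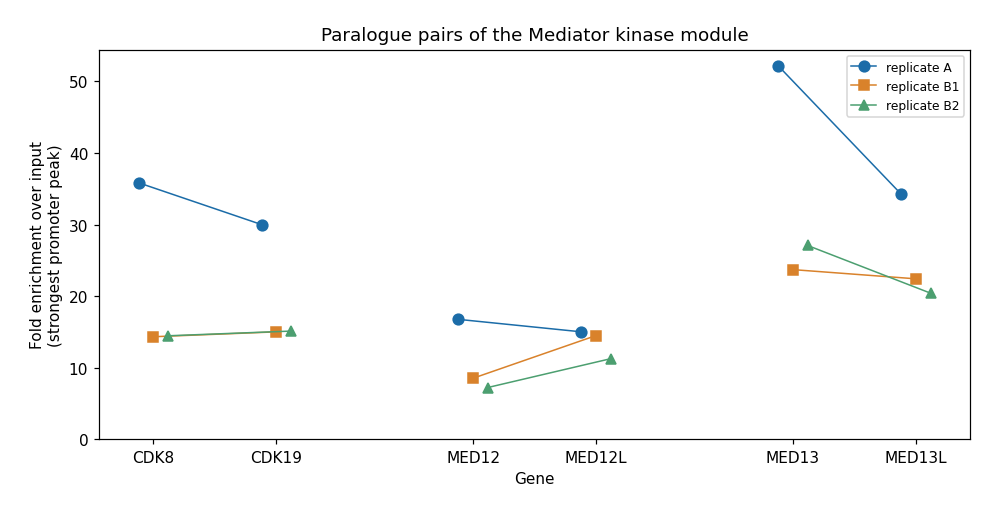
Fold enrichment over input at the strongest promoter peak (vertical axis, from 0) of the paralogue pairs of the kinase module, with a line joining the genes of a pair in each replicate. For CDK8 and CDK19 and for MED12 and MED12L the line falls in A and rises in B1 and B2, whereas MED13 lies above MED13L in 3 of 3 by fold enrichment.

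Promoter sequences of 3 of the most enriched genes are shown as examples of the start sites that carry much PHF8. The 80 bases just upstream of a TSS, read 5′ to 3′ on the strand of the gene from GRCh37, are given for POLR2D (chr2:128615730-128615809) and POLR2E (chr19:1095375-1095454) at the canonical TSS and for MED15 (chr22:20850120-20850199) at the alternative TSS next to its strongest summit. Capitals mark GGGCGG, the core of the site of SP factors, on either strand. The word depends on the TSS chosen. The 80 bases before the TSS nearest the strongest summit in A do not hold it for POLR2D and POLR2E. Nor do those before the canonical TSS of MED15. The word also depends on the gene chosen. MED8 and POLR2C, which have high mean percentiles too but are not shown, lack it before both kinds of TSS. The 3 sequences therefore do not stand for all genes of high rank.
POLR2D: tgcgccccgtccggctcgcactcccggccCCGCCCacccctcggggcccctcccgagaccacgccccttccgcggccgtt
POLR2E: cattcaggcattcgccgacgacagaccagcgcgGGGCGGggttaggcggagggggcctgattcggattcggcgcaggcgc
MED15: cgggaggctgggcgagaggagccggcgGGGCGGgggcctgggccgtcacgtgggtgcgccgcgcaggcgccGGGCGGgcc

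Around the canonical TSS, with 250 bases on either side, 44 of the 46 promoters (95.7%) were CpG-island-like (GC share 0.5 or more, with CpG dinucleotides at 0.6 or more of the number that the base composition predicts), and the exceptions were MED24 and POLR2K. The share was 67.0% of all protein-coding genes and 90.2% of PHF8 targets. Both exceptions were targets. Of the 44, 43 (97.7%) were PHF8 targets, against 81.0% of all CpG-island-like protein-coding promoters. In the window from 250 bases before to 50 after the canonical TSS, CCGGAAG, the core of the site of ETS factors, was found on either strand in 16 of the 46 promoters (34.8%), 10 of Mediator and 6 of Pol II. It was found in 14.0% of all protein-coding promoters and in 20.9% of those of targets. AAGATGGC, the site of YY1, was found in 10.9%, against 6.03% of targets. These 5 promoters, MED1, MED16, MED18, MED25 and MED29, are all of Mediator, to which 33 of the 46 genes belong. GCATGCGC, the site of NRF1, was found in 8.70%, against 6.18% of targets. GGGCGG was found in 71.7%, against 75.7%, CCAAT, the box bound by NF-Y, in 28.3%, against 36.8%, TATAAA, the TATA box, in 8.70%, against 4.64%, and TGACGTCA, the cyclic AMP response element, in 2.17%, against 3.61%. These shares are of all 46 genes and include POLR2J, which was not a target and has the words of ETS factors, NRF1 and SP factors. For NRF1 it is 1 of only 4 genes, with CDK19, MED18 and POLR2F. The higher NRF1 share than among targets therefore cannot be read as an excess at occupied genes. Each word was counted on its own, so a base may belong to matches of more than 1 word. A match is a run of letters and not a bound site.

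POLR2J, which encodes the partner of POLR2C in the assembly core (chr7:102113575-102119369, minus strand), was the exception. The nearest peak was 13549 bp from its TSS in A, 13631 bp in B1 and 13593 bp in B2. Its near-identical neighbours POLR2J3 and POLR2J2, which the rule leaves out because their symbols end in a number, each had a promoter peak in all 3 replicates. POLR2J3 has 2 gene records in the annotation, which share the same peaks. Fold enrichment was 14.8, 9.21 and 8.54 at POLR2J3, on 37, 26 and 25 fragments, and 8.96, 5.46 and 4.93 at POLR2J2, on 22, 15 and 14 fragments. These were low values among targets, at percentiles 10.1, 11.5 and 10.6 for POLR2J3 and at 2.91, 2.19 and 1.47 for POLR2J2.

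The 3 genes can hardly be told apart by sequence at their starts. Over the TSS and 500 bases on either side of it, POLR2J was 97.5% identical to POLR2J2 and 98.1% identical to POLR2J3. The 80 bases upstream of the TSS of POLR2J (chr7:102119370-102119449) and POLR2J2 (chr7:102312111-102312190), shown because the former had no peak and the latter had, differ at 2 positions, which are in capitals.
POLR2J: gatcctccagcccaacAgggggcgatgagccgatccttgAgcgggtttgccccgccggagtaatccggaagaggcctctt
POLR2J2: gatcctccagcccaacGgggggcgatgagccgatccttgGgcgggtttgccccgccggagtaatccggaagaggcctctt
Both carry the ETS letters CCGGAAG at the same place near the TSS. Only the stretch of POLR2J2 holds GGGCGG, which includes the second of the differing bases. Whether this word bears on the peaks was not tested. Of the 31-base words within 1 kb of the TSS of POLR2J, 89.0% occur elsewhere in the genome, against a median of 7.26% (0 to 28.2%) at the 45 occupied genes. The share was 90.9% at POLR2J2 and 91.02% and 92.6% at the 2 records of POLR2J3, which had peaks of low rank in all 3 replicates. A short read from such a word has more than 1 possible origin, and whether such reads were kept is not given in the sources used here. Their part in the missing peak of POLR2J, and in the peaks of POLR2J2 and POLR2J3, was not tested.

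**Figure D3:**
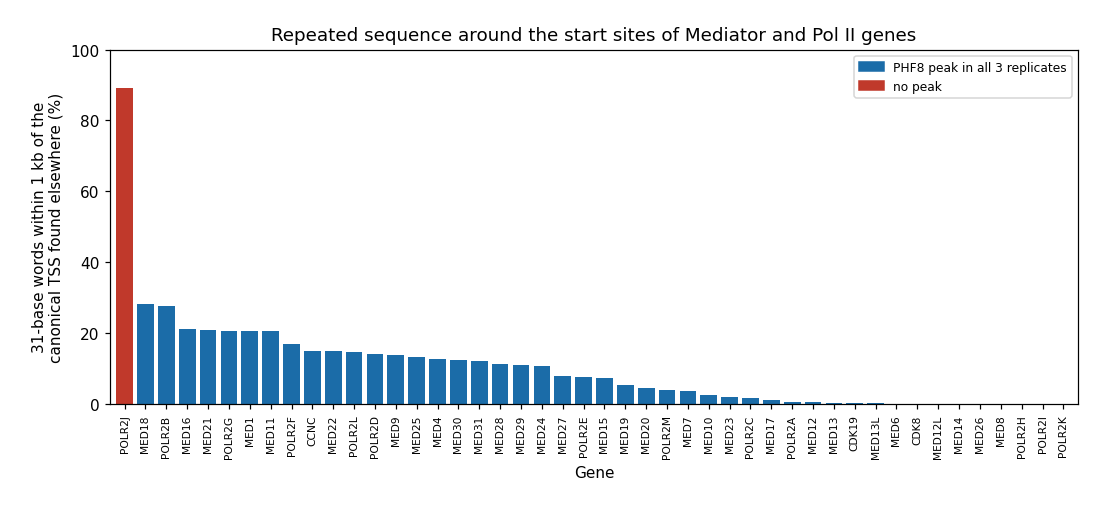
Share of 31-base words within 1 kb of the canonical TSS that occur elsewhere in the genome (vertical axis, percent) for the 46 genes, in descending order. POLR2J (89.0%) is the only gene without a PHF8 peak, and the others lie at or under 28.2%.

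PHF8 summits lay at set distances from the TSS. The summit of the strongest peak was 50 to 200 bp downstream of the canonical TSS in all 3 replicates for 28 of the 45 genes (62.2%), against 49.6% of protein-coding targets with a canonical transcript. Among them, POLR2D had its summits at 161, 189 and 156 bp, POLR2C at 95, 100 and 136 bp and POLR2E at 137, 161 and 146 bp. The median of the summits in this zone was 135, 134 and 134 bp, and 135 bp for all targets in each replicate. For 8 genes (17.8%) the summit was more than 100 and up to 350 bp upstream in all 3 replicates, against 9.14% of targets, namely CDK19, MED12L, MED14, MED21, MED22, MED6, MED8 and POLR2H. The paralogues CDK8 and CDK19 differed in position, with summits at 158, 105 and 121 bp for CDK8 and at −295, −290 and −294 bp for CDK19. No gene had its summit between 100 bp upstream and 49 bp downstream in all 3 replicates, and 0.413% of targets did. MED13, at −550, −557 and −541 bp, and MED15 lay outside these zones (4.44%, against 18.5% of targets), and 7 genes changed zone between replicates (15.6%, against 22.4%). The limits of the zones were set after the positions had been seen.

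**Figure D4:**
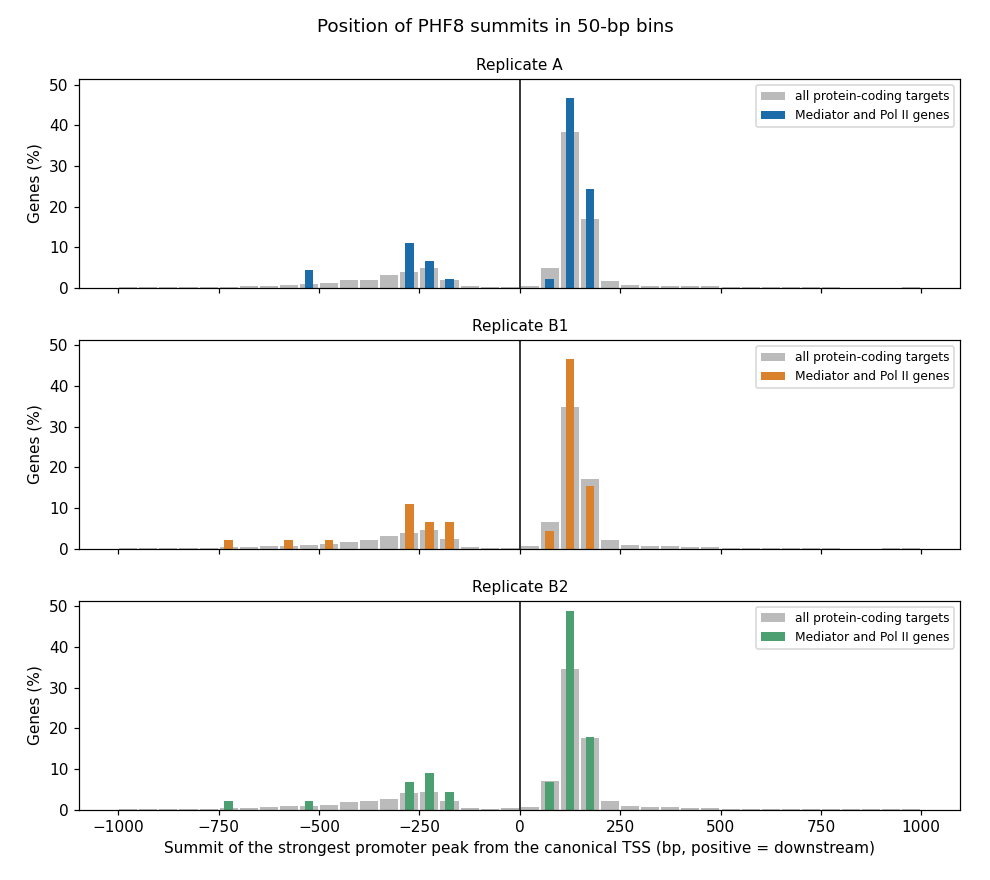
Share of genes (vertical axis, percent) by the position of the strongest promoter summit from the canonical TSS in bins of 50 bp, for all protein-coding targets (grey) and for Mediator and Pol II genes (colour), with a panel for each replicate; summits over 1 kb away, such as that of MED15, are outside the axis. Both sets peak downstream of the TSS and have a gap at the TSS itself.

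Measured from the nearest TSS of any transcript, the shares were near those of all targets. The strongest summit was downstream in all 3 replicates for 23 of the 45 genes (51.1%), against 54.9%, and upstream for 11 (24.4%), against 23.2%. A pair of promoter peaks or more was present in all 3 replicates for 15 genes (33.3%), against 31.9%. The widest peaks were at POLR2H, with 2772, 2013 and 2609 bp, and they reached the promoter of CLCN2 as well.

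Many of these genes start next to another gene on the opposite strand. A TSS of another annotated gene on the opposite strand lay within 1 kb upstream for 23 of the 46 genes (50.0%), against 31.8% of protein-coding genes. For 18 of the 45 targets (40.0%) the partner was protein-coding, against 24.3% of targets. These included MED17 with TAF1D, which encodes a factor of RNA polymerase I, MED20 with BYSL, MED22 with the ribosomal protein gene RPL7A, MED25 with FUZ, MED29 with the elongation factor gene PAF1, POLR2A with ZBTB4, POLR2B with NOA1 and POLR2I with TBCB. The strongest peak also met the promoter window of another protein-coding gene in all 3 replicates for 17 genes (37.8%), against 29.0%, so at these sites the peak cannot be assigned to a single gene. None of the 7 kinase module genes had such a shared peak.

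Other genes of the transcription machinery were also mostly targets. Of 35 general transcription factor genes 32 were targets, with a median percentile of 63.8 ± 2.32 (SD, n = 3). The exceptions were TAF1L and TAF7L, known for expression in the testis, and GTF2H2. At GTF2H2 100.0% of the 31-base words around the TSS occur elsewhere in the genome. The part of expression or of repeated sequence in these missing peaks was not tested, and no expression values were used here. All 23 pausing and elongation factor genes were targets, with a median of 70.1 ± 3.61, and so were all 18 genes named for subunits of RNA polymerases I and III, with a median of 64.3 ± 6.09. The median of Pol II genes lay among these values and that of Mediator genes below them, and no test was made between the lists.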

How the data were processed

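PHF8 peak lists of 3 ChIP replicates in SKMEL-147 cells were used. Alignment by the authors was to hg19, with default Bowtie2 parameters, and MACS gave narrow peaks of each replicate against input. bcl2fastq and Picard are also named in the submitters' processing notes, and versions and read totals are not given in the sources used here. The deposited fold enrichment divides ChIP by local background at the summit, on a linear scale. The p-value and q-value were deposited as −log10 values, and the deposited score, derived from the q-value, was not used. The direction of the study's q-value cutoff as printed would keep non-significant peaks, and the largest q-value listed was 0.0482.

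Every transcript start of GENCODE release 44, lifted to GRCh37 (the build of the peaks), was a TSS. Targets were genes for which, in all 3 replicates, a peak met the window of 1 kb around any TSS by at least 1 bp. The strongest peak by fold enrichment stood for a gene, and its percentile was taken among all protein-coding targets of the replicate. Where fragments replaced fold enrichment in ranks or ratios, the peak with the most fragments stood for the gene. Canonical transcripts were those tagged so in the annotation. ChIP fragments at a summit were solved from fold enrichment and p-value under a Poisson law, which gave whole numbers for 100% of peaks within 0.001 of the deposited −log10 p-value. They are not corrected for amplification. The local background came from the same solution, and its lowest value among the listed peaks of a replicate was taken as the genome-wide one. Solving and matching were tested on simulated data. The 3 paralogue pairs were compared by an exact sign-flip permutation test of log2 ratios. Python 3.11.15, pandas 2.3.3, scipy 1.17.1 and pysam 0.24.0 were used.

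All 46 genes are named. Values in every replicate are given for the 5 highest and 5 lowest mean percentiles, the paralogues, POLR2A, POLR2B and any gene without a peak, and values of other genes were added after they had been seen. Promoter sequence of POLR2C lies in annotated exons and is not shown, and a further item is not reported here. The genes, lists and tests were chosen with earlier results of these data known. Alternatives were other windows, 1 TSS per gene, the summit inside the window, stricter cutoffs, 2 of 3 replicates, recovered fragments, POLR2 symbols with a number, other definitions of partners, and leaving out each replicate. The canonical TSS as reference for summit positions was added after seeing the data.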

Additional observations from a re-analysis of the deposited data

How the results depend on the processing

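Of 65 alternatives other than leaving out a replicate, 58 left the result the same. That is, a count moved by at most 1.5 times, a median percentile by less than its SD, or a log2 ratio kept its sign. Some of these could not come out otherwise, so the tally is not a measure of robustness. A window of 2 kb or 2 of 3 replicates cannot lower a count of targets. Nor can POLR2 symbols with a number change the count of Mediator genes. With 1 TSS per gene the ratios of the 3 paralogue pairs were those of the main setting. The count of 45 targets ranged from 43, with 1 TSS per gene (MED7 and MED24 lost), to 48, with POLR2J2 and the 2 gene records of POLR2J3 added. With 1 TSS per gene 54.0% of all protein-coding genes were targets. A fold enrichment above 10 lost MED12 and left 49.6% of all protein-coding genes as targets. The median percentile of Mediator genes was 50.1 with 1 TSS per gene, 43.0 with a fold enrichment above 10, which leaves 10001 targets to rank among, and 47.6 by recovered fragments. That of Pol II genes was 57.8 with a fold enrichment above 10 and 72.6 by recovered fragments. By recovered fragments 9 genes were at or above percentile 75 in all 3 replicates, where MED10, MED25, MED26, MED29 and POLR2C joined the 4 named, and 18.3% of all targets were there. Without genes that have a divergent partner, 12 genes had a downstream summit, since fewer genes entered. Leaving out each replicate gave medians of 52.0 to 52.8 for Mediator and 64.9 to 66.0 for Pol II, and 4 to 6 genes at or above percentile 75 (6 without A or without B1). The shares of all targets without divergent partners or without a replicate were not taken. Leaving out each replicate also gave mean log2 ratios of −0.066 to 0.10 for CDK8 to CDK19, which turned negative without A. The ratios were −0.70 to −0.24 for MED12 to MED12L and 0.24 to 0.51 for MED13 to MED13L. No comparison between groups of samples was possible, paired or not, because the input libraries were not analysed here on their own. The only pairing was that of paralogues, which were compared within replicates. Depth limits detection to summits with about as many fragments as the weakest listed, so a lack of a peak is not a lack of binding.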

Other observations

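Inside the bodies of the 46 genes and outside every TSS window, 2 regions were listed, in 2 genes (4.35%), against 5.71% of all protein-coding genes with such a peak in at least 1 replicate. Neither gene had such a peak in all 3 replicates, against 2.26% of all protein-coding genes. A region in MED15 (chr22:20863525-20863719) was listed in A only, with a fold enrichment of 4.72 on 13 fragments. A region in POLR2F (chr22:38396142-38396359), an annotated gene that spans the melanocyte gene SOX10 on the other strand, was listed in A and B1, with a fold enrichment of 5.59 and 3.63 on 15 fragments each. These values are far under those at the promoters of the same genes.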
